A study of Homo sapiens with 24 samples.

Results

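Gene expression in OCI-AML3 cells kept in DMSO was set against that in MV411 and MOLM13 cells kept in DMSO. The comparison used 9 of the series' 24 libraries, 3 from each line. A gene belonged to the set when its mean log2(RPM + 0.5) in OCI-AML3 lay at least 2, which is 4-fold, above or below the mean of MV411 and also that of MOLM13. RPM is reads per 1000000, counted after 470 of the 25680 gene symbols had been left out and each library had been rescaled. The symbols left out were replication histone genes, small nucleolar and Cajal body RNAs, RPPH1, RMRP and RNA45S5. Of the 13765 genes with at least 1 RPM in at least 3 of the 9 libraries, 805 (5.85%) met the rule. OCI-AML3 stood higher for 586 of them, 4.26% of the genes tested, and lower for 219, or 1.59%.

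OCI-AML3 is an established acute myeloid leukaemia line with mutant NPM1, mutant DNMT3A and mutant NRAS, without an MLL fusion and without an internal tandem duplication of FLT3. MV411 carries a fusion of MLL (KMT2A) with AFF1 and MOLM13 a fusion of MLL with MLLT3, and both carry the FLT3 duplication. The labels name only the lines, so these genotypes are background. The 3 OCI-AML3 libraries and the 3 MOLM13 libraries came from cells held in DMSO for 4 days. The labels state no DMSO time for the 3 MV411 libraries. Each genotype is represented by 1 line, and each line was normalised in a table of its own, so genotype, line and batch cannot be told apart here. The replicates were called biological, without a description of how the cultures were kept separate, so the spread between them may be technical.

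Mutant NPM1 moves the nucleolar protein nucleophosmin to the cytoplasm, and leukaemias with it keep HOXA and HOXB genes and their partner MEIS1 active. MLL fusions drive HOXA genes and MEIS1 through a chromatin complex that contains menin, the product of MEN1. Signalling from FLT3 with the internal duplication runs strongly through the transcription factor STAT5, whereas mutant NRAS feeds the MAP kinases of the ERK family. Both kinds of leukaemia are often monocytic, so the lines share a lineage while differing in driver.

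OCI-AML3 libraries held 60855497 to 72994481 assigned reads, against 25166887 to 26554728 in MV411 and 25299839 to 27240357 in MOLM13. The symbols left out took 3.94% to 4.30% of reads in OCI-AML3, against 0.202% to 0.217% in MV411 and 0.246% to 0.266% in MOLM13. The myeloid regulators SPI1 and CEBPA were expressed in all 3 lines, but other myeloid markers were uneven. CD68 and LYZ had clear reads in every line. CD14 was near 0 in MV411 and MOLM13, and MPO and ITGAM were low in OCI-AML3, below both other lines. Values of these markers are given further below. SPI1, the master regulator of myeloid fate, had 153, 151 and 143 RPM in OCI-AML3, 166, 171 and 160 RPM in MV411, and 46.7, 44.8 and 46.4 RPM in MOLM13. CEBPA, a regulator of granulocyte and monocyte genes, averaged 704 ± 28.4 RPM in OCI-AML3, 324 ± 8.62 RPM in MV411 and 257 ± 7.03 RPM in MOLM13 (SD, n = 3 each). CD3D, CD3E, CD2, MS4A1, EPCAM and KRT19, markers of T cells, B cells and epithelium, were at or near 0 throughout. Other markers in the lists of other cell types were not. EBF1, GZMA and COL1A2 were at least 4-fold higher in OCI-AML3 than in both lines, and NKG7 and KRT8 lower. PAX5 stood at -6.13 and KRT18 at -4.68 against MOLM13, and NCAM1 at 7.54 against MV411, on the log2 scale. The summed level of 32 erythroid and megakaryocyte markers was 1620 to 1728 RPM in OCI-AML3, 73.1 to 77.9 RPM in MV411 and 38 to 39.7 RPM in MOLM13, and in OCI-AML3 most of it came from CA2. Sums over the 27 T and NK cell markers were 202 to 211, 52.7 to 53.3 and 118 to 125 RPM in the same order of lines. Sums over the 21 B cell markers were 12.6 to 12.9, 16.8 to 18.4 and 96.5 to 103 RPM, and those over the 17 epithelial and fibroblast markers were 33.2 to 34.2, 18.2 to 22.2 and 40.6 to 41.9 RPM. The part of these markers in any difference below was not tested.

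Many of the differences were large. The smaller of the 2 differences was at least 16-fold for 120 of the 586 higher genes and 47 of the 219 lower genes, and at least 64-fold for 19 and 10. All 586 higher genes had every OCI-AML3 library above every library of the other lines, and all 219 lower genes had every one below, which the choice of a 4-fold gap makes nearly certain. Such complete separation held for 34.2% of all genes tested in the upward and 24.3% in the downward direction. The filter on low values matters for reading these counts, since 319 of the 586 higher genes passed it only through the 3 OCI-AML3 libraries and 111 of the 219 lower genes only through the other lines. With the filter recomputed after leaving out OCI-AML3 replicate 1, 2 or 3 the higher genes numbered 268, 267 and 266, because 2 OCI-AML3 libraries cannot satisfy a minimum of 3. On the deposited values, whose medians over all genes lay 1.29 above MV411 and 1.10 above MOLM13 on the log2 scale, 1602 genes were higher and 107 lower, so the balance of directions, and the sign of differences smaller than those shifts, depend on the scaling. Without recomputing the filter the higher genes ranged from 582 to 592 and the lower genes from 216 to 222 as each library was left out.

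**Figure D1:**
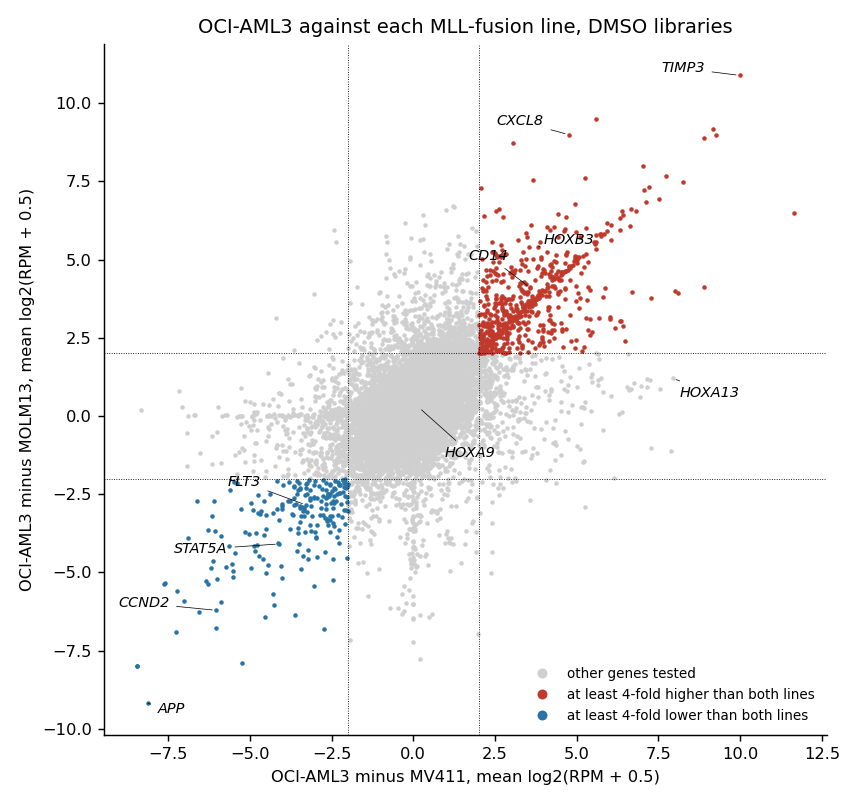
Each point is a gene, with the difference of mean log2(RPM + 0.5) between OCI-AML3 and MV411 on the horizontal axis and between OCI-AML3 and MOLM13 on the vertical axis, 3 DMSO libraries per line. Dotted lines mark 4-fold; the 586 genes higher than both lines are red, the 219 lower ones blue, and HOXA9 sits near the origin.

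Against MV411 alone 963 genes were at least 4-fold higher (7%) and 738 lower (5.36%), and against MOLM13 alone 1323 were higher (9.61%) and 549 lower (3.99%). The same rule picked 364 genes higher (2.64%) and 247 lower (1.79%) in MV411 than in the other lines, and 218 higher (1.58%) and 399 lower (2.9%) in MOLM13. OCI-AML3 had the largest count of higher genes of the 3 lines in this comparison and also the deepest libraries, and the part of depth in that count was not tested. Among 12350 protein-coding genes alone the OCI-AML3 counts were 512 (4.15%) higher and 190 (1.54%) lower, the MV411 counts 326 (2.64%) and 232 (1.88%), and the MOLM13 counts 189 (1.53%) and 374 (3.03%). MV411 and MOLM13 lay within 2-fold of each other for 417 of the 586 higher genes (71.2%) and 138 of the 219 lower genes (63.0%), against 68.7% of all genes tested. The median absolute difference over all genes tested was 0.64 on the log2 scale between OCI-AML3 and MV411, 0.66 between OCI-AML3 and MOLM13, and 0.62 between MV411 and MOLM13. On reads recovered from the tables, edgeR's quasi-likelihood test with Benjamini-Hochberg adjustment at 0.05 called 12359 genes (89.8%) against MV411, 6355 (46.2%) of them higher and 6004 (43.6%) lower in OCI-AML3. Against MOLM13 it called 12386 (90%), 6141 (44.6%) of them higher and 6245 (45.4%) lower. With replicates this tight almost every gene differed between lines, so the size of a difference carries more here than a call.

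The HOX genes are described by cluster. Of 12 HOXB cluster genes listed, 11 passed the filter and 10 (90.9%) stood at least 4-fold higher in OCI-AML3 than in both lines. Over all genes tested this share was 4.26%. Of these 11, 9 passed the filter only through the OCI-AML3 libraries and all 9 were higher, so the share is largely set by the filter and serves as a description. Over all genes tested, 596 genes passed in that way and 319 of them (53.5%) were higher. None of the 10 tested HOXA genes met the rule in either direction. Of all genes tested 5.85% met it, a share at which a list of this size may well hold none. The 10 HOXB members occupy an almost unbroken stretch of chromosome 17, broken by HOXB4. HOXB2, HOXB-AS1 and HOXB3 are consecutive tested genes at chr17:48542655-48590241, and the other 7, from HOXB-AS3 to HOXB13, follow each other at chr17:48590420-48728750 (GRCh38). The median HOXB difference was 3.42 against MV411 and 4.09 against MOLM13 on the log2 scale, or 3.83 and 5.70 with genes at no reads set to their bound of 3 reads over the group. Over all genes tested these medians were 0.07 and 0.14. In a bulk sample, fewer cells with a transcript and less of it per cell cannot be told apart.

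HOXB3, active in blood progenitors, had 25.6, 26.4 and 26.8 RPM in OCI-AML3, 1.28, 1.51 and 1.37 RPM in MV411, and 0.221, 0 and 0.198 RPM in MOLM13. HOXB6, which is expressed in early myeloid cells, had 13.4, 13.2 and 13.2 RPM in OCI-AML3 and 0.755, 0.876 and 0.721 RPM in MV411, and was listed at 0 in all 3 MOLM13 libraries. MV411 kept low levels of both genes, and the MOLM13 level of HOXB3 rests on 11 reads. HOXB2 had 8.17, 7.92 and 7.89 RPM in OCI-AML3 and was listed at 0 in all MV411 and MOLM13 libraries. The posterior gene HOXB8 had 4.29, 4.4 and 3.92 RPM in OCI-AML3 and was listed at 0 in all MV411 and MOLM13 libraries, and HOXB9 had 13.7, 12.9 and 14.2 RPM in OCI-AML3, 0, 0 and 0.0379 RPM in MV411, and 0.147, 0.233 and 0.198 RPM in MOLM13. No OCI-AML3 library overlapped a library of another line for these 5 genes, which the 4-fold rule makes nearly certain. MOLM13 was at or near 0 for all 5. HOXB4, known for expanding blood stem cells when forced, was the tested HOXB gene that missed the rule. It had 11, 10.2 and 11.8 RPM in OCI-AML3, 4, 3.7 and 3.83 RPM in MV411, and 0.0736, 0.0776 and 0.159 RPM in MOLM13. Its difference was 1.40 ± 0.065 (SE) against MV411 and 4.25 ± 0.087 against MOLM13 on the log2 scale, so the MV411 side fell short of 4-fold. HOXB-AS3, a noncoding RNA from the cluster, had 33.7, 33.2 and 34 RPM in OCI-AML3, 0.377, 0.478 and 0.266 RPM in MV411, and 0, 0.0388 and 0.0396 RPM in MOLM13. Its annotated span covers HOXB5 and HOXB6, and HOXB-AS1 overlaps HOXB2 and HOXB3. The strand used in counting is not given in the sources used here, so reads of such neighbours may be shared.

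The posterior HOXA genes were abundant in OCI-AML3 too. HOXA9, which most MLL-fusion and NPM1-mutant leukaemias depend on, had 89.7, 88.4 and 89.1 RPM in OCI-AML3, 85.1, 77.6 and 75.3 RPM in MV411, and 74.2, 75.7 and 71 RPM in MOLM13. The differences were small, 0.17 ± 0.053 against MV411 and 0.27 ± 0.028 against MOLM13 on the log2 scale, although no OCI-AML3 library overlapped the others. HOXA10, the neighbour that shares a readthrough transcript with HOXA9, had 157, 154 and 157 RPM in OCI-AML3, 53.5, 52.2 and 51.8 RPM in MV411, and 75, 74.3 and 74.1 RPM in MOLM13. HOXA13 had 128, 128 and 130 RPM in OCI-AML3, 0.0377, 0.0398 and 0 RPM in MV411, and 53.5, 57.1 and 55.3 RPM in MOLM13. HOXA11 had 63.2, 62.4 and 62 RPM in OCI-AML3, 0.189, 0.159 and 0.114 RPM in MV411, and 35.3, 34.6 and 35.5 RPM in MOLM13. OCI-AML3 and MOLM13 thus shared the end of the cluster beyond HOXA10, where MV411 was near 0. Genes nearer the other end of the cluster stood lower than in MOLM13. HOXA7 had 0.846, 0.729 and 0.633 RPM in OCI-AML3, was listed at 0 in all 3 MV411 libraries, and had 8.54, 8.46 and 8.44 RPM in MOLM13, and HOXA3 had 0.399, 0.357 and 0.393 RPM in OCI-AML3, was listed at 0 in all 3 MV411 libraries, and had 6.92, 6.1 and 6.42 RPM in MOLM13. HOXA5 had 3.53, 2.66 and 3.44 RPM in OCI-AML3, 0, 0.0398 and 0.0379 RPM in MV411, and 11.2, 11.3 and 10.4 RPM in MOLM13, which placed OCI-AML3 between the other lines.

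**Figure D2:**
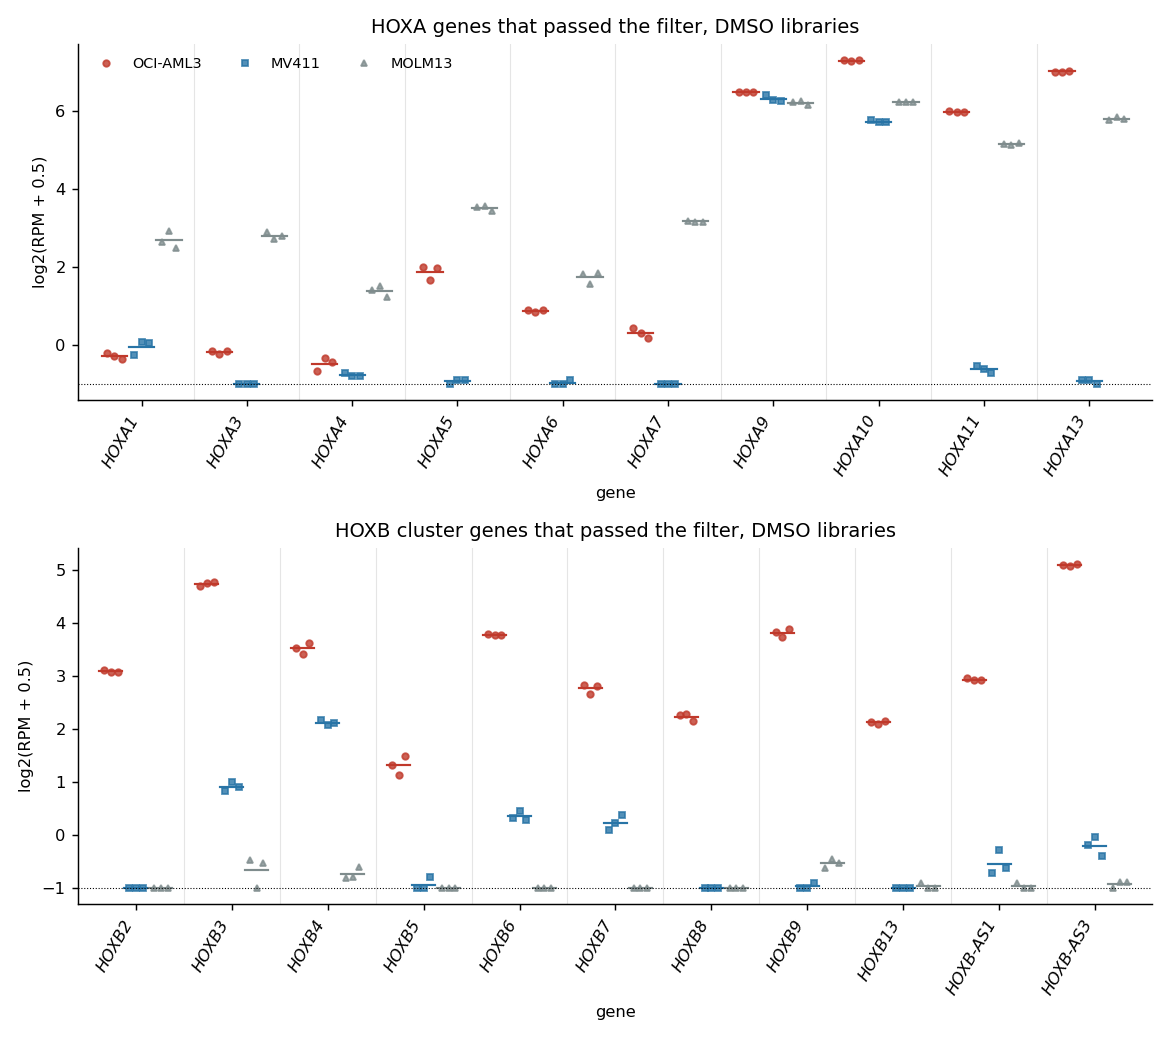
Points are single DMSO libraries and short bars the group means of log2(RPM + 0.5) for the HOXA genes (top) and HOXB cluster genes (bottom) that passed the filter, with OCI-AML3, MV411 and MOLM13 from left to right for each gene. The dotted line is the value of a gene without reads. In OCI-AML3, 10 of the 11 HOXB cluster genes and none of the 10 HOXA genes stand at least 4-fold above both lines. Of the 11 HOXB cluster genes, 9 passed the filter only through OCI-AML3. Over all genes tested 4.26% stand at least 4-fold above both lines.

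Of 12 tested HOX cofactors and other homeobox genes, 3 were higher (25%) and 1 lower (8.33%), against 4.26% and 1.59% of all genes tested. Of the 3, 2 passed the filter only through the OCI-AML3 libraries. PBX3, a partner that stabilises HOXA9 and MEIS1 on DNA, had 16, 16.9 and 15.9 RPM in OCI-AML3, 97.4, 97.9 and 103 RPM in MV411, and 98.8, 95.5 and 101 RPM in MOLM13. OCI-AML3 was lower by -2.58 ± 0.037 and -2.56 ± 0.037 on the log2 scale. MEIS1, another partner in this complex, had 49.6, 49.4 and 51.3 RPM in OCI-AML3, 91.7, 88.3 and 87.6 RPM in MV411, and 50.7, 47.8 and 48 RPM in MOLM13. OCI-AML3 overlapped MOLM13 for MEIS1 and lay below MV411, an order that turned on the deposited scale. LHX2, a LIM homeobox gene, had 74.1, 74.3 and 72.1 RPM in OCI-AML3, 0, 0 and 0.114 RPM in MV411, and 0.184, 0.233 and 0.0396 RPM in MOLM13, and the Iroquois gene IRX5 had 88, 88 and 84.3 RPM in OCI-AML3, 9.55, 8.64 and 7.32 RPM in MV411, and 7.21, 5.78 and 6.3 RPM in MOLM13. HOXC6 was the only gene of the 4 tested in the HOXC and HOXD clusters to meet the rule, and it was lower, with 0.144, 0.0429 and 0.12 RPM in OCI-AML3, 2.23, 1.63 and 1.93 RPM in MV411 and 4.6, 4.35 and 4.2 RPM in MOLM13.

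FLT3, the receptor tyrosine kinase that is duplicated internally in both MLL-fusion lines, had 69.4, 69.2 and 66.4 RPM in OCI-AML3, 654, 663 and 693 RPM in MV411, and 480, 507 and 493 RPM in MOLM13. It was 9.80 times lower in OCI-AML3 than in MV411 and 7.21 times lower than in MOLM13. Of 28 tested MLL fusion targets outside the HOX clusters, FLT3 was the only gene to meet the rule (3.57%), and none was higher. Over all genes tested, 1.59% were lower and 4.26% higher. MEF2C, CDK6 and BCL2, other targets of this list, averaged 184 ± 1.99, 869 ± 8.82 and 273 ± 0.73 RPM in OCI-AML3, 170 ± 4.84, 601 ± 31.3 and 152 ± 2.11 RPM in MV411, and 333 ± 5.75, 625 ± 15.9 and 124 ± 1.96 RPM in MOLM13 (SD, n = 3 each). All 3 stayed within 4-fold of the other lines. None of the 17 genes of the menin and MLL complexes met the rule, which 5.85% of all genes tested met. MEN1 had 37.3, 37 and 37 RPM in OCI-AML3, 49.5, 45.6 and 48.5 RPM in MV411, and 47.7, 45.2 and 49 RPM in MOLM13. KMT2A had 85.5, 81.2 and 87.1 RPM in OCI-AML3, 241, 241 and 228 RPM in MV411, and 117, 128 and 116 RPM in MOLM13, where gene-level reads count the fused and the intact transcript together. MLLT3 had 3.75, 4.15 and 3.78 RPM in OCI-AML3, 1.92, 1.71 and 1.9 RPM in MV411, and 17.8, 20.4 and 20.1 RPM in MOLM13, and AFF1 had 108, 114 and 111 RPM in OCI-AML3, 200, 201 and 190 RPM in MV411, and 354, 349 and 326 RPM in MOLM13. NPM1 itself had 1954, 1973 and 1953 RPM in OCI-AML3, 1040, 1044 and 1019 RPM in MV411, and 1816, 1849 and 1870 RPM in MOLM13, and these tables do not separate mutant from normal NPM1 reads.

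A list of STAT5 targets that also holds STAT5A and STAT5B had 2 higher (10%) and 3 lower (15%) of 20 tested. Without these paralogues it had 2 higher and 2 lower of 18, the lower ones being SOCS2 and CCND2. Over all genes tested, 4.26% were higher and 1.59% lower. SOCS2, a feedback inhibitor of cytokine receptors, had 4.41, 4.55 and 4.88 RPM in OCI-AML3, 41.7, 41.7 and 40.6 RPM in MV411, and 222, 223 and 220 RPM in MOLM13. STAT5A had 1.64, 1.8 and 1.45 RPM in OCI-AML3, 36, 37.2 and 35.8 RPM in MV411, and 34.4, 36.7 and 36.3 RPM in MOLM13, a difference of -4.11 ± 0.07 and -4.09 ± 0.074 on the log2 scale. Its paralogue STAT5B averaged 64.8 ± 0.497, 58.9 ± 2.49 and 65.8 ± 3.63 RPM in OCI-AML3, MV411 and MOLM13 (SD, n = 3 each), with overlapping libraries. CISH and PIM1, a feedback inhibitor and a survival kinase, were lower than in MV411 by more than 4-fold but missed the rule against MOLM13. CISH had 6.93, 7.36 and 7.53 RPM in OCI-AML3, 68.9, 71.2 and 76.3 RPM in MV411, and 25.7, 24.7 and 24.5 RPM in MOLM13. PIM1 had 9.08, 9.42 and 10.5 RPM in OCI-AML3, 133, 142 and 151 RPM in MV411, and 20, 19.9 and 19.5 RPM in MOLM13. The 2 higher genes of the list were BCL6 and DUSP4, a repressor that STAT5 is known to shut off and an ERK phosphatase.

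CCND1 and CCND2, D-type cyclins that drive entry into the cell cycle, stood on opposite sides, and the related CCND3 did not meet the rule, with -0.41 ± 0.027 against MV411 and -0.11 ± 0.019 against MOLM13 on the log2 scale. CCND2, a STAT5 target in blood cells, had 0.367, 0.357 and 0.376 RPM in OCI-AML3, 54.9, 58.5 and 55.7 RPM in MV411, and 60.6, 64.5 and 66.3 RPM in MOLM13. CCND1, which responds to RAS and ERK signalling, had 69.2, 74.1 and 68.2 RPM in OCI-AML3, 1.13, 0.996 and 1.4 RPM in MV411, and 11.2, 12.3 and 10.5 RPM in MOLM13. The groups did not overlap for either gene, which the 4-fold rule makes nearly certain for OCI-AML3. The differences were -6.04 ± 0.029 and -6.21 ± 0.039 for CCND2, against 5.41 ± 0.11 and 2.59 ± 0.076 for CCND1 on the log2 scale. CCNA1, a cyclin otherwise typical of germ cells and some leukaemias, had 0.255, 0.229 and 0.291 RPM in OCI-AML3, 78.4, 65.7 and 79.7 RPM in MV411, and 4.49, 5.28 and 3.84 RPM in MOLM13. Of the 18 cyclins and CDK inhibitors tested, CCND1 was the 1 higher gene and CCND2 and CCNA1 the 2 lower ones. These shares of 5.56% and 11.1% stand beside 4.26% and 1.59% of all genes tested. CDKN2A, the gene of p16 and ARF, had 8.11, 8.68 and 8.07 RPM in OCI-AML3 and 27.7, 30.9 and 26.3 RPM in MV411, and was listed at 0 in all 3 MOLM13 libraries, so OCI-AML3 lay between the other lines.

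Of 22 tested genes induced by ERK signalling, 7 (31.8%) were higher and none was lower, against 4.26% and 1.59% of all genes tested, and the other 15 did not meet the rule. The median difference of the 22 was 2.10 against MV411 and 1.08 against MOLM13. EGR1, a zinc finger factor of the immediate-early response, had 59.5, 68.3 and 67 RPM in OCI-AML3, 11.7, 9.52 and 11 RPM in MV411, and 2.17, 2.29 and 2.42 RPM in MOLM13. FOS, its partner in that response, had 117, 144 and 156 RPM in OCI-AML3, 25, 23.5 and 21.7 RPM in MV411, and 6.73, 6.13 and 6.02 RPM in MOLM13. The related factor EGR3 had 32.9, 35.2 and 32.9 RPM in OCI-AML3, 3.17, 1.35 and 1.56 RPM in MV411, and 0.81, 0.776 and 0.634 RPM in MOLM13. All 3 were highest in OCI-AML3 and lowest in MOLM13, with no overlap between lines. PHLDA1, an early-response gene, had 90.4, 97.4 and 102 RPM in OCI-AML3, 15.2, 12.8 and 14.1 RPM in MV411, and 2.43, 2.25 and 2.14 RPM in MOLM13, and the ERK phosphatase DUSP4 had 38.2, 40.3 and 38.3 RPM in OCI-AML3, 1.74, 2.15 and 1.59 RPM in MV411, and 0.0736, 0.0388 and 0.198 RPM in MOLM13. The dual-specificity phosphatase DUSP1 had 9.21, 12.6 and 13.3 RPM in OCI-AML3, 1.55, 1.27 and 1.52 RPM in MV411, and 2.54, 1.82 and 2.54 RPM in MOLM13. OCI-AML3 was wholly apart from both lines for all 6 of these genes, which the 4-fold rule makes nearly certain. FOSB, another immediate-early gene, had 49.2, 68.3 and 92.1 RPM in OCI-AML3, 6.38, 6.33 and 5.84 RPM in MV411, and 0.994, 1.48 and 1.43 RPM in MOLM13, with a wide spread between the OCI-AML3 libraries.

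DUSP6, a phosphatase often read as a marker of ERK activity, stood in the other order. It had 26.8, 32.2 and 30.1 RPM in OCI-AML3, 45.6, 53 and 48 RPM in MV411, and 45.6, 47.6 and 47.2 RPM in MOLM13, which placed every OCI-AML3 library below every other library, an order that turned on the deposited scale. SPRY4, a feedback inhibitor of the same pathway, had 36.7, 33.7 and 36.4 RPM in OCI-AML3, 0.226, 0.199 and 0.228 RPM in MV411, and 8.57, 9.28 and 8.2 RPM in MOLM13, and at 1.97 ± 0.063 it fell just short of 4-fold against MOLM13. Of the 32 tested RAS pathway components, the only member was RASA3, a GTPase-activating protein that turns RAS off, which averaged 37.3 ± 1.08 RPM in OCI-AML3, 166 ± 2.55 RPM in MV411 and 156 ± 1.63 RPM in MOLM13 (SD, n = 3 each). NRAS was not a member, with 147 ± 3.38, 120 ± 6.73 and 174 ± 5.7 RPM in the same order of lines.

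The EGR1 promoter is shown because it holds the CArG box, an element bound by serum response factor and known from immediate-early genes. The 300 bases at chr5:138465229-138465528 (GRCh38.p14, plus strand, RefSeq) run from 250 before to 50 after the transcription start and hold 2 CArG boxes, printed in capitals.
EGR1: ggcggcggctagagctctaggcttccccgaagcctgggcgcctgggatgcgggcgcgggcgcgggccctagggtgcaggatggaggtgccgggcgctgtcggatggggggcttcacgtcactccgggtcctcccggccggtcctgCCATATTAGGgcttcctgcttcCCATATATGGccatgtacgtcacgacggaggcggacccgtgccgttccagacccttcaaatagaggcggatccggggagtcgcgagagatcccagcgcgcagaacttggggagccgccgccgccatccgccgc
A CArG box, searched on both strands, was found in 1.29% of 27305 RefSeq promoter windows of this length. The windows of FOS, FOSB, DUSP1, PHLDA1, NR4A1, KLF4, KLF2 and ID1 held none, which says only that these letters are not in those windows. A promoter window was matched for 72.4% of the higher genes, 72.1% of the lower genes and 77.5% of all genes tested, so a comparison of promoters between the sets is void.

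Myeloid transcription factors gave 10 higher (29.4%) and 2 lower (5.88%) of 34 tested, against 4.26% and 1.59% of all genes tested. EGR1, FOS and FOSB were among the higher ones. KLF4, which drives monocyte differentiation, had 48.6, 57.9 and 67.8 RPM in OCI-AML3, 5.09, 4.1 and 4.51 RPM in MV411, and 5.85, 7.65 and 6.7 RPM in MOLM13. KLF2, a factor of quiescent and anti-inflammatory monocytes, had 26.2, 29.3 and 28.3 RPM in OCI-AML3, 0.981, 0.597 and 0.721 RPM in MV411, and 1.29, 1.05 and 1.51 RPM in MOLM13. MV411 was lowest for both genes. CEBPD had 115, 123 and 112 RPM in OCI-AML3, 14.5, 14.1 and 10.8 RPM in MV411, and 3.9, 4.19 and 4.36 RPM in MOLM13, and NR4A1, an orphan receptor of patrolling monocytes, had 35.8, 40.1 and 44.3 RPM in OCI-AML3, 2, 1.31 and 1.67 RPM in MV411, and 4.93, 5.09 and 3.88 RPM in MOLM13. ID1, an inhibitor of helix-loop-helix factors, had 39.8, 47.3 and 46.7 RPM in OCI-AML3, 0.83, 0.956 and 0.797 RPM in MV411, and 2.13, 2.6 and 2.73 RPM in MOLM13. OCI-AML3 exceeded both lines in every library for each of these factors, which their choice by the 4-fold rule makes nearly certain. The other direction held RUNX1 and BCL11A. RUNX1, a core factor of definitive blood formation, had 57.4, 53.1 and 55.1 RPM in OCI-AML3, 424, 411 and 399 RPM in MV411, and 262, 266 and 260 RPM in MOLM13. BCL11A had 0.112, 0.1 and 0.0684 RPM in OCI-AML3, 11.4, 11.1 and 11.2 RPM in MV411, and 29.4, 29.3 and 31.7 RPM in MOLM13, near the level of a few reads in OCI-AML3.

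**Figure D3:**
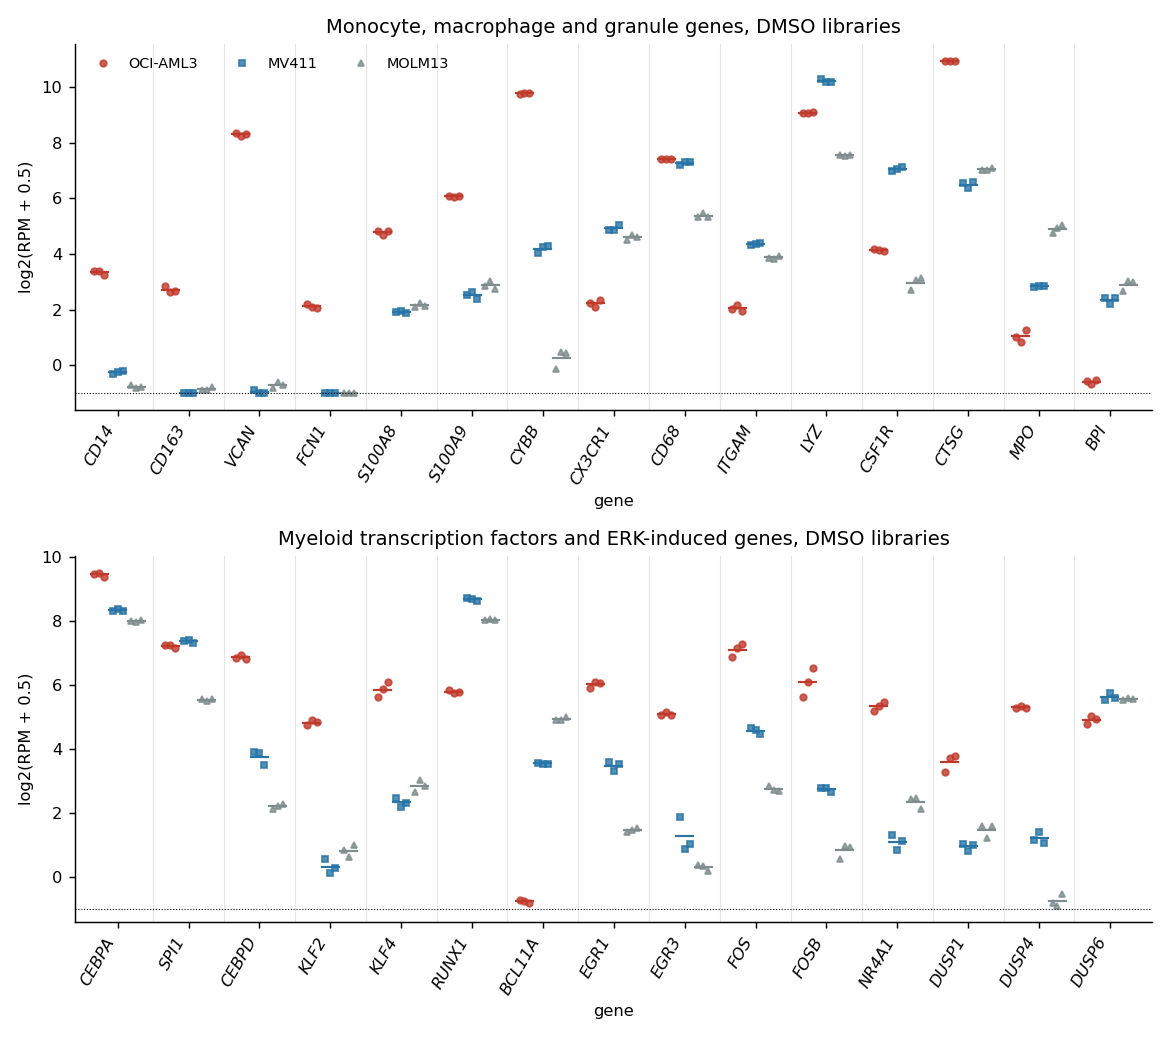
Points are single DMSO libraries and short bars the group means of log2(RPM + 0.5), with OCI-AML3, MV411 and MOLM13 from left to right for each gene, for monocyte, macrophage and granule genes (top) and for myeloid transcription factors and ERK-induced genes (bottom). The dotted line is the value of a gene without reads; CD14, VCAN and FCN1 stand far above both lines in OCI-AML3, whereas CX3CR1, BPI, RUNX1 and BCL11A stand below.

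Monocyte and macrophage genes were unevenly placed. Of 29 tested, 9 were higher (31.0%) and 1 was lower (3.45%), against 4.26% and 1.59% of all genes tested. Of the 9, 5 passed the filter only through the OCI-AML3 libraries. The median difference was 0.63 against MV411 and 2.03 against MOLM13. CYBB, the catalytic subunit of the phagocyte NADPH oxidase, had 865, 876 and 880 RPM in OCI-AML3, 15.7, 18.6 and 18.9 RPM in MV411, and 0.405, 0.893 and 0.872 RPM in MOLM13. CD14, the coreceptor for lipopolysaccharide, had 9.91, 9.89 and 9.02 RPM in OCI-AML3, 0.302, 0.358 and 0.379 RPM in MV411, and 0.11, 0.0776 and 0.0793 RPM in MOLM13. VCAN, a matrix proteoglycan made by classical monocytes, had 322, 300 and 318 RPM in OCI-AML3, 0.0377, 0 and 0 RPM in MV411, and 0.0736, 0.155 and 0.119 RPM in MOLM13. CYBB was the gene of these 3 with clear reads in MV411. CD163, a scavenger receptor, had 6.78, 5.66 and 5.82 RPM in OCI-AML3, was listed at 0 in all 3 MV411 libraries, and had 0.0368, 0.0388 and 0.0793 RPM in MOLM13, and the lectin FCN1 had 4.12, 3.75 and 3.7 RPM in OCI-AML3 and was listed at 0 in all MV411 and MOLM13 libraries. The calprotectin genes stood alike, since S100A8 had 27.6, 25.1 and 28.1 RPM in OCI-AML3, 3.25, 3.38 and 3.19 RPM in MV411, and 3.75, 4.23 and 3.88 RPM in MOLM13 and S100A9 had 67, 65.2 and 67.4 RPM in OCI-AML3, 5.28, 5.73 and 4.74 RPM in MV411, and 6.66, 7.73 and 6.18 RPM in MOLM13. These genes are typical of CD14+ classical monocytes. OCI-AML3 was apart from both lines in each, which the 4-fold rule makes nearly certain.

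Other genes of the same list did not follow. CSF1R, the receptor that sustains monocytes, had 17.6, 17.2 and 16.7 RPM in OCI-AML3, 125, 133 and 140 RPM in MV411, and 6.07, 7.92 and 8.24 RPM in MOLM13. ITGAM, the integrin CD11b, had 3.62, 3.97 and 3.42 RPM in OCI-AML3, 19.5, 19.8 and 20.5 RPM in MV411, and 14.1, 13.8 and 14.9 RPM in MOLM13. CD68, a lysosomal marker, had 168, 169 and 171 RPM in OCI-AML3, 145, 159 and 159 RPM in MV411, and 39.7, 43.5 and 39.8 RPM in MOLM13. MV411 had the most CSF1R and ITGAM, and OCI-AML3 was above MOLM13 but not above MV411 by 4-fold for CD68. CX3CR1, the fractalkine receptor of nonclassical monocytes, was the lower member and had 4.23, 3.82 and 4.6 RPM in OCI-AML3, 28.5, 28.6 and 32.1 RPM in MV411, and 22.1, 25.2 and 23.9 RPM in MOLM13. Of the 29 genes, 8 were at least 4-fold higher than MOLM13 only and 7 at least 4-fold lower than MV411 only. Whatever the other line, 9.61% of all genes tested were at least 4-fold higher than MOLM13 and 5.36% at least 4-fold lower than MV411. These shares include genes apart from both lines, so they are upper limits for the shares apart from a single line only.

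Granule proteins gave 1 member in each direction of 14 tested, 7.14% each, against 4.26% and 1.59% of all genes tested. CTSG, the protease cathepsin G of primary granules, had 1965, 1934 and 1934 RPM in OCI-AML3, 92.1, 81.8 and 95.3 RPM in MV411, and 128, 129 and 135 RPM in MOLM13. BPI, a bactericidal protein of the same granules, had 0.176, 0.129 and 0.188 RPM in OCI-AML3, 4.91, 4.06 and 4.89 RPM in MV411, and 5.89, 7.65 and 7.49 RPM in MOLM13. MPO, the peroxidase that defines these granules, had 1.52, 1.29 and 1.92 RPM in OCI-AML3, 6.57, 6.77 and 6.68 RPM in MV411, and 26.3, 30.4 and 32.4 RPM in MOLM13 and missed the rule against MV411. LYZ had 536, 535 and 549 RPM in OCI-AML3, 1245, 1153 and 1151 RPM in MV411, and 185, 183 and 187 RPM in MOLM13, with MV411 highest except on the deposited scale. Genes of the same granules therefore stood in different orders.

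Among stem and progenitor genes, 2 of 10 tested were higher (20%) and 1 lower (10%), against 4.26% and 1.59% of all genes tested. Both higher genes passed the filter only through the OCI-AML3 libraries, and none of the 8 other genes was higher. ERG, an ETS factor of stem cells and megakaryocytes, had 9.18, 9.19 and 9.17 RPM in OCI-AML3, 0.264, 0.398 and 0.266 RPM in MV411, and 0.0368, 0.0776 and 0.0396 RPM in MOLM13. TAL1, which pairs with it at blood stem cell enhancers, had 5.44, 5.66 and 4.6 RPM in OCI-AML3 and 0.528, 0.358 and 0.683 RPM in MV411, and was listed at 0 in all 3 MOLM13 libraries. The lower gene was SOCS2, described above. KIT, the receptor for stem cell factor, was listed at 0 in all 3 OCI-AML3 libraries, and had 4.23, 4.5 and 3.57 RPM in MV411 and 0.699, 0.505 and 0.555 RPM in MOLM13. CD34, the stem cell surface marker, did not pass the filter and was near 0 in every line.

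Secreted and surface proteins included a ligand and its receptor chain. LIF, a cytokine of the interleukin-6 family, had 9.1, 9.79 and 10.3 RPM in OCI-AML3, 0.151, 0.438 and 0.152 RPM in MV411, and 0.184, 0.466 and 0.159 RPM in MOLM13. Its receptor chain LIFR had 15.4, 14.9 and 14.8 RPM in OCI-AML3 and 0, 0.0398 and 0 RPM in MV411, and was listed at 0 in all 3 MOLM13 libraries. OSMR, the receptor chain for the related oncostatin M, had 40.2, 42.9 and 42.6 RPM in OCI-AML3, was listed at 0 in all 3 MV411 libraries, and had 5.96, 4.58 and 5.19 RPM in MOLM13. LIF and LIFR were each below 1 RPM in all MV411 and MOLM13 libraries. Both passed the filter only through the OCI-AML3 libraries. Over all genes tested, 596 genes passed in that way and 319 of them (53.5%) were higher. The signalling chain IL6ST that both receptors use did not meet the rule, with -0.25 ± 0.061 against MV411 and -0.70 ± 0.038 against MOLM13, nor did the ligand OSM, with 1.08 ± 0.14 and 2.86 ± 0.14 on the same log2 scale. LIFR and OSMR were the 2 higher members of 31 cytokine receptors tested (6.45%), against 4.26% of all genes tested, and none was lower. Of 26 chemokines and cytokines, 5 were higher (19.2%) and 1 lower (3.85%), against 4.26% and 1.59% of all genes tested. Of the 5, 4 passed the filter only through the OCI-AML3 libraries. CXCL8, the neutrophil attractant interleukin-8, had 350, 380 and 342 RPM in OCI-AML3, 15.7, 11.7 and 11.3 RPM in MV411, and 0.147, 0.311 and 0.159 RPM in MOLM13. CXCL1 had 35.6, 35.9 and 30.8 RPM in OCI-AML3 and 0.0377, 0.0398 and 0 RPM in MV411, and was listed at 0 in all 3 MOLM13 libraries, and CXCL8, CXCL1 and CXCL2 are consecutive members within chr4:73740569-74099195. VEGFC, a lymphatic growth factor, had 4.12, 4.13 and 4.41 RPM in OCI-AML3 and 0, 0 and 0.0379 RPM in MV411, and was listed at 0 in all 3 MOLM13 libraries. IL18, the lower gene, had 1.82, 2 and 1.49 RPM in OCI-AML3, 8.08, 11.1 and 7.82 RPM in MV411, and 17.6, 17.9 and 17.4 RPM in MOLM13.

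Receptor kinases stood on both sides as well, with 2 higher and 2 lower of 19 tested, 10.5% each. Over all genes tested these shares were 4.26% and 1.59%. MERTK, a receptor by which macrophages take up dying cells, had 9.45, 8.91 and 9.84 RPM in OCI-AML3, 1.7, 1.39 and 1.44 RPM in MV411, and 0.0736, 0.0776 and 0.0396 RPM in MOLM13. AXL, a related receptor with the same ligand, had 0.543, 0.415 and 0.565 RPM in OCI-AML3, 5.02, 4.74 and 4.97 RPM in MV411, and 10.9, 10.8 and 11.5 RPM in MOLM13. The pseudokinase PTK7 had 14.2, 14.7 and 14.8 RPM in OCI-AML3, 0.264, 0.557 and 0.683 RPM in MV411, and 0.0368, 0.0776 and 0.317 RPM in MOLM13. FLT3 was the other lower gene. OCI-AML3 did not overlap the other lines for any of the 4, which the 4-fold rule makes nearly certain. Among 48 leukocyte surface molecules 3 were higher (6.25%) and 2 lower (4.17%). Of the 3, 2 passed the filter only through the OCI-AML3 libraries. NT5E (CD73), which makes adenosine outside the cell, had 90.3, 96.1 and 92.9 RPM in OCI-AML3, 0.0377, 0.159 and 0.19 RPM in MV411, and 0.0736, 0.116 and 0.0793 RPM in MOLM13. DPP4 (CD26), a surface peptidase, had 108, 109 and 111 RPM in OCI-AML3, 7.96, 9.12 and 7.51 RPM in MV411, and 0.11, 0.0776 and 0.0793 RPM in MOLM13, and the adhesion receptor CD226 had 14, 13.7 and 16.3 RPM in OCI-AML3, 0.302, 0.319 and 0.417 RPM in MV411, and 0.957, 0.854 and 0.753 RPM in MOLM13. LGALS9, which encodes a galectin, had 7.58, 7.23 and 7.66 RPM in OCI-AML3, 176, 177 and 187 RPM in MV411, and 69.9, 71.2 and 74.1 RPM in MOLM13, and CD84 had 0.176, 0.143 and 0.171 RPM in OCI-AML3, 22.7, 28.2 and 24.3 RPM in MV411, and 3.97, 4.97 and 5.31 RPM in MOLM13. Of 34 integrins and adhesion genes, ITGA1, ITGA2 and CDH2 were higher (8.82%) and none was lower. Of these 3, 2 passed the filter only through the OCI-AML3 libraries. ITGA1, a collagen-binding integrin chain, had 24.4, 24.4 and 26.5 RPM in OCI-AML3, 0.151, 0.0796 and 0.0759 RPM in MV411, and 1.18, 1.2 and 0.872 RPM in MOLM13. ITGA2, its close relative, had 11.3, 12.2 and 12.3 RPM in OCI-AML3, 0.0755, 0.199 and 0.228 RPM in MV411, and 0.0736, 0.0388 and 0.0793 RPM in MOLM13.

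MHC class II genes stood lower than in MV411, with a small median difference from MOLM13. Of 14 genes listed, 6 passed the filter. None of the 6 met the rule, which 5.85% of all genes tested met, so this count alone says little. All 6 were at least 4-fold lower than in MV411, against 5.36% of all genes tested. CIITA, the transactivator of the class II genes, had 0.415, 0.329 and 0.445 RPM in OCI-AML3, 13.7, 13.8 and 11.9 RPM in MV411, and 0.552, 0.621 and 0.317 RPM in MOLM13. HLA-DRA had 0, 0 and 0.0171 RPM in OCI-AML3, 6.11, 8.24 and 7.21 RPM in MV411, and 0.147, 0.233 and 0.198 RPM in MOLM13, and CD74, the invariant chain, had 88.5, 85.4 and 85 RPM in OCI-AML3, 448, 503 and 487 RPM in MV411, and 54.2, 54.7 and 54.5 RPM in MOLM13. The median difference was -3.92 against MV411 and -0.09 against MOLM13, or -4.53 against MV411 with genes at no reads at their bound. Values in this region need care. Of 125 protein-coding symbols between HLA-F and HLA-DPB1, 30 passed the filter and 37 had no read in any of the 9 libraries, and 55, 62 and 75 had none in OCI-AML3, MV411 and MOLM13. CSNK2B, a kinase subunit that cells use generally, had 6.08, 6.35 and 5.71 RPM in OCI-AML3 and was listed at 0 in all MV411 and MOLM13 libraries. AIF1 had 9.95, 10.1 and 10.7 RPM in OCI-AML3 and was listed at 0 in all MV411 and MOLM13 libraries, and PRRC2A, which lies between them, was also a member. A gene listed at 0 in this region need not lack its transcript.

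Lists of basic cell functions held few members or none, beside 5.85% of all genes tested, a share at which most lists of this size would hold only a few. None of 30 DNA replication genes, 25 mitosis genes, 52 cytosolic ribosomal proteins, 33 oxidative phosphorylation genes, 31 proteasome subunits, 24 cholesterol synthesis genes, 18 DNA methylation genes, 25 Polycomb and histone demethylase genes or 18 BCL2 family genes met the rule in either direction. For cholesterol synthesis the median was nevertheless -1.21 against MV411 and -0.14 against MOLM13. For DNA replication it was 0.08 against MV411 and -0.62 against MOLM13. Interferon response genes had 1 member of 41, GBP4, p53 targets 1 of 24, GDF15, and glycolysis 1 of 25, the muscle-type phosphofructokinase PFKM, which had 49.2, 48.3 and 48.1 RPM in OCI-AML3, 4.91, 5.81 and 5.77 RPM in MV411, and 3.02, 2.87 and 2.93 RPM in MOLM13. Of 28 NRF2 and glutathione genes 3 were higher (10.7%), AKR1C1, AKR1C3 and GSTT1, against 4.26% of all genes tested. Of these 3, 2 passed the filter only through the OCI-AML3 libraries. AKR1C3 had 24.4, 23.5 and 23.9 RPM in OCI-AML3, 0.34, 0.557 and 0.493 RPM in MV411, and 0.331, 0.116 and 0.119 RPM in MOLM13, and since the AKR1C genes are close copies of each other, reads may be split between them.

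**Figure D4:**
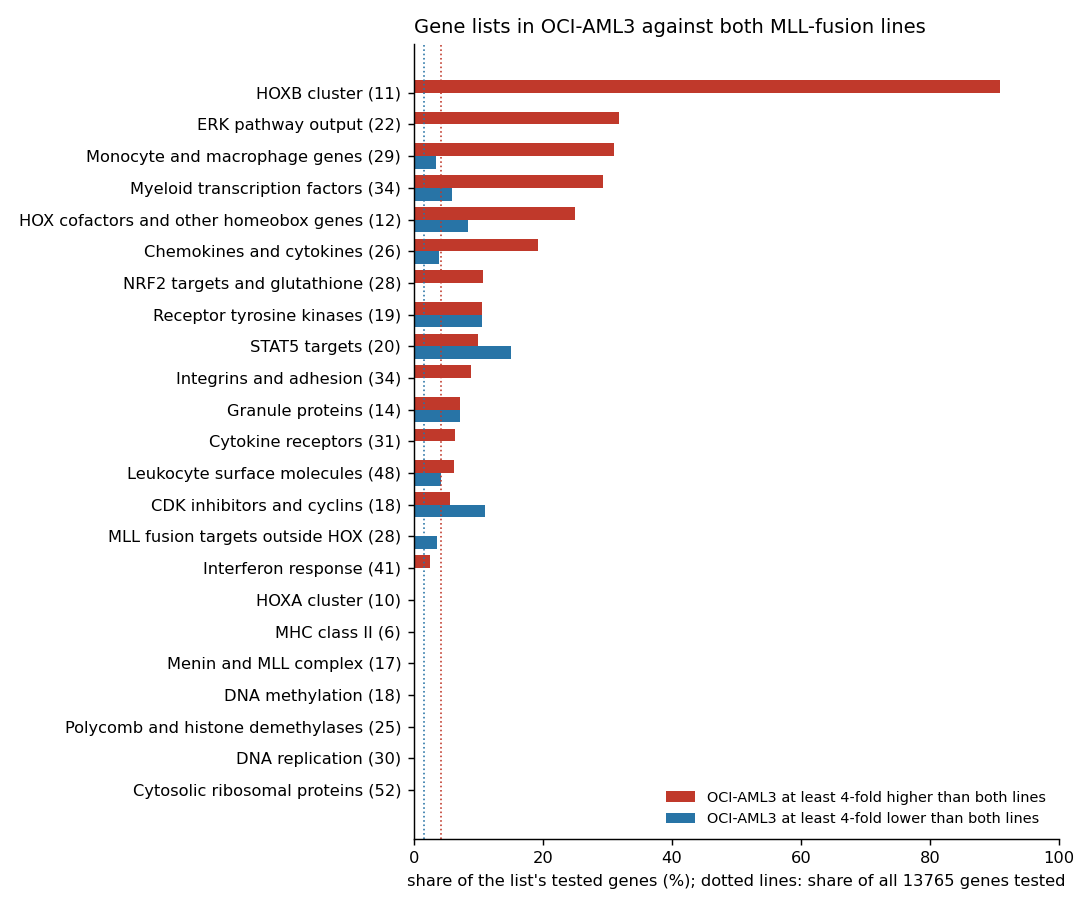
Bars give the share of each list's tested genes that stood at least 4-fold higher (red) or lower (blue) in OCI-AML3 than in both MLL-fusion lines, with the number tested in brackets. Dotted lines mark the shares over all 13765 genes tested, 4.26% and 1.59%; the HOXB cluster stands at 90.9%, where 9 of the 11 genes passed the filter only through OCI-AML3 (of all such genes 319 of 596 were higher), and lists such as DNA replication and ribosomal proteins have no bar.

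The genes farthest above both lines included several known best from other tissues. TIMP3, a matrix-bound inhibitor of metalloproteinases, had 913, 1007 and 923 RPM in OCI-AML3 and 0.453, 0.478 and 0.379 RPM in MV411, and was listed at 0 in all 3 MOLM13 libraries. MKX, a homeobox factor of tendon, had 291, 293 and 298 RPM in OCI-AML3, 0, 0 and 0.0379 RPM in MV411, and 0, 0.0388 and 0 RPM in MOLM13, and together with MKX-AS1 and ARMC4 it forms a run of 3 consecutive higher genes at chr10:27672874-27999675. PCDH20, a protocadherin, had 234, 229 and 244 RPM in OCI-AML3 and was listed at 0 in all MV411 and MOLM13 libraries. SLAIN1, a microtubule regulator, had 223, 217 and 218 RPM in OCI-AML3, 0.302, 0.199 and 0.19 RPM in MV411, and 0.626, 0.776 and 0.793 RPM in MOLM13. CA2, the carbonic anhydrase of red cells and osteoclasts, had 1533, 1621 and 1632 RPM in OCI-AML3, was listed at 0 in all 3 MV411 libraries, and had 16.8, 16.5 and 18 RPM in MOLM13. Summed over the 3 OCI-AML3 libraries, MKX had 56178 reads and PCDH20 had 44954, against 1 MKX read in each other line and no PCDH20 read in either. The list continued with the adaptor IRS1, the potassium channel KCND2, the lipase inhibitor G0S2, the granzyme inhibitor SERPINB9, and PID1 and PPFIA2. IRS1, which links insulin and growth factor receptors to PI3 kinase, had 53.4, 53.1 and 49.5 RPM in OCI-AML3, 0.113, 0.119 and 0.152 RPM in MV411, and 0.0736, 0 and 0.119 RPM in MOLM13. SERPINB9 had 73.4, 72.3 and 74.4 RPM in OCI-AML3, 0.189, 0.199 and 0.0759 RPM in MV411, and 0.442, 0.233 and 0.198 RPM in MOLM13. KCND2 had 93.5, 92.8 and 89.9 RPM in OCI-AML3, was listed at 0 in all 3 MV411 libraries, and had 0.258, 0.116 and 0.436 RPM in MOLM13.

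Several of the genes farthest below both lines were at or near 0 in OCI-AML3. APP, the amyloid precursor protein, had 0, 0 and 0.0342 RPM in OCI-AML3, 144, 137 and 145 RPM in MV411, and 296, 294 and 304 RPM in MOLM13, and the OCI-AML3 level rests on 2 reads. SNRPN, an imprinted small nuclear ribonucleoprotein gene, had 0, 0.0286 and 0 RPM in OCI-AML3, 172, 180 and 179 RPM in MV411, and 129, 130 and 130 RPM in MOLM13. SNURF had identical counts, since the 2 genes share a transcript. BCL7A, a subunit of SWI/SNF chromatin remodellers, was listed at 0 in all 3 OCI-AML3 libraries, and had 32.7, 30.7 and 33.5 RPM in MV411 and 55.8, 53 and 54 RPM in MOLM13. The sorting nexin SNX19 was listed at 0 in all 3 OCI-AML3 libraries, and had 76.1, 72.2 and 77.7 RPM in MV411 and 60.3, 60.6 and 58.8 RPM in MOLM13. These 2 genes had no read in OCI-AML3, at more than 2 times the depth of the other lines. NFATC2, a calcium-responsive transcription factor, had 0.0319, 0 and 0.0513 RPM in OCI-AML3, 44.3, 44.2 and 39.6 RPM in MV411, and 19.4, 20.5 and 20.5 RPM in MOLM13. ARRDC4, an arrestin-domain protein, was listed at 0 in all 3 OCI-AML3 libraries, and had 41.2, 36.6 and 37.7 RPM in MV411 and 18.3, 20.9 and 20.9 RPM in MOLM13. APOC2, an activator of lipoprotein lipase whose exons are shared with the readthrough gene APOC4-APOC2, had 1.48, 1.34 and 1.52 RPM in OCI-AML3, 373, 374 and 409 RPM in MV411, and 79.2, 79.8 and 79.5 RPM in MOLM13. KCNQ3 and ZNF160 had 3 reads each over the 3 OCI-AML3 libraries. Among the lower genes given with values in this paragraph, APOC2 differed most between MV411 and MOLM13. OCI-AML3 was below both lines for all of them, as the rule requires.

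Start regions of 3 of these genes are shown because their transcripts were plainly present on 1 side and at or near 0 on the other. CG dinucleotides are in capitals, and each window runs from 250 bases before to 50 after the start (RefSeq, GRCh38.p14). TIMP3 lies at chr22:32801455-32801754 on the plus strand, APP at chr21:26171079-26171378 on the minus strand and BCL7A at chr12:122021634-122021933 on the plus strand.
TIMP3: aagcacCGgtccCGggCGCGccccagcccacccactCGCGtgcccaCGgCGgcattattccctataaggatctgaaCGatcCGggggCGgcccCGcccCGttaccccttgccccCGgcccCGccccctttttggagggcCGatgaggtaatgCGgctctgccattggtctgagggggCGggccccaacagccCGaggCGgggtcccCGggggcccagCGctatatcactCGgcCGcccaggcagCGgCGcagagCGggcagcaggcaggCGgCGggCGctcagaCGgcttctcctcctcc
APP: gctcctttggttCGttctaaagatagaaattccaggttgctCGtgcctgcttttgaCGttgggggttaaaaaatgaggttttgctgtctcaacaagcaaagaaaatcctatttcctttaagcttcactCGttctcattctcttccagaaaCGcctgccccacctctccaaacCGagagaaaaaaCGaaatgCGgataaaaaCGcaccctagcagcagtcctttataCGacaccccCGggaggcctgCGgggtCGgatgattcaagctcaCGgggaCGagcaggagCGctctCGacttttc
BCL7A: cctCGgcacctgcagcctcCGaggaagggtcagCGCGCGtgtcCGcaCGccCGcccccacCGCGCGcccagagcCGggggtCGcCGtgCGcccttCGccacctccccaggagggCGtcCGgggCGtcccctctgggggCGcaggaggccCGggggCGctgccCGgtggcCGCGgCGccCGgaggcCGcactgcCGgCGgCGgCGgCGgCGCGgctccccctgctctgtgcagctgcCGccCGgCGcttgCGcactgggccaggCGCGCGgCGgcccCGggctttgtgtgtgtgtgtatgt
TIMP3 has 31 CG dinucleotides in its window, a number reached by 20.4% of all promoter windows. APP has 17, reached by 46% of them, and BCL7A has 44, reached by 4.09%. DNA methylation was not measured in these libraries.

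Members next to each other on a chromosome formed 15 runs of at least 3 consecutive tested genes in 1 direction. The longest lower run was SNRPN, SNURF, PWARSN, PWAR5 and IPW at chr15:24823637-25122476, the imprinted Prader-Willi region, from which the paternal copy is normally transcribed. IPW, a noncoding RNA of the region, was listed at 0 in all 3 OCI-AML3 libraries, and had 30.4, 29.1 and 28.1 RPM in MV411 and 30, 29.4 and 31.2 RPM in MOLM13. A further lower run of 4 genes on the same chromosome held GOLGA8M, a member of a repeated gene family whose reads may be split between copies, and ran over chr15:28698583-28856574. Chromosome 15 had 20 lower genes of 443 tested (4.51%), against 1.59% over all genes. MNDA, IFI16 and AIM2, neighbouring genes of nucleic acid sensors in chr1:158831351-159147132, were higher together, and AIM2 had 3.03, 3.06 and 2.99 RPM in OCI-AML3, 0.151, 0.239 and 0.19 RPM in MV411, and 0, 0.0388 and 0.0396 RPM in MOLM13. Chromosome copy number was not measured. Median differences by chromosome ranged from -0.57 (chromosome 19) to 0.35 (chromosome 4) against MV411, and from -0.92 (chromosome 13) to 0.38 (chromosome 22) against MOLM13.

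By RefSeq class, 29 of 674 tested long noncoding genes were higher (4.3%) and 10 lower (1.48%), close to the shares over all genes. MicroRNA genes had 14 higher of 137 (10.2%) and none lower, against 4.26% and 1.59% of all genes tested. In a list of 150 microRNA genes chosen by symbol, 15 were higher, and 13 of these passed the filter only through OCI-AML3. They were 50% of the 26 listed genes that passed in that way, near the 53.5% among all such genes. Of the other 124 genes of that list, 2 were higher. Of 15 other noncoding genes 7 were higher (46.7%), against 4.26% of all genes tested. TERC, the RNA template of telomerase, which has no poly(A) tail, had 110, 113 and 96.3 RPM in OCI-AML3, was listed at 0 in all 3 MV411 libraries, and had 0.0368, 0.0388 and 0 RPM in MOLM13. RNU11, an RNA of the minor spliceosome that also lacks a tail, had 17.3, 16.4 and 17 RPM in OCI-AML3, 0.0755, 0.0398 and 0 RPM in MV411, and 0.147, 0 and 0 RPM in MOLM13. RNU12, RNU4ATAC and RNU6ATAC were higher too, so 5 of the 6 tested RNAs of this kind that the rule had kept stood at least 4-fold above both lines, and all 6 had passed the filter only through OCI-AML3. The symbols left out at the start, many of which also lack a tail, were likewise more abundant in OCI-AML3. The part of library preparation in these genes cannot be told apart from that of the line.

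Genes at the edge of the rule were close to it on both sides. LPCAT1, ABCA6 and TRAF5 were just inside with smaller differences of 2.0002, 2.0033 and 2.0035 on the log2 scale, whereas SNHG22, HOXA11-AS and THBS4 were just outside at 1.9978, 1.9977 and 1.9949. On the lower side HNRNPH3, HOXC6 and GOLGA8J were inside at -2.0060, -2.0102 and -2.0134, and RIPK3, APOBEC3B and ZMIZ1 outside at -1.9996, -1.9955 and -1.9938.

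The 9 libraries of cells treated with the menin inhibitor MI-503 at 2.5 µM gave the same measure in samples that the rule had not used. They came from the same 3 lines and stood in the same tables, so a difference of line, batch or preparation would recur in them. Of the 586 higher genes, 319 had passed the DMSO filter only through OCI-AML3. A high overlap was thus largely set in advance, and it serves as a description. Treatment lasted 4 days in OCI-AML3, 3 days in MV411 and 4 days in MOLM13, and libraries held 44364964 to 61848977 reads in OCI-AML3, 25245088 to 26175174 in MV411 and 23281330 to 25913968 in MOLM13. In these libraries 644 of 13830 tested genes (4.66%) were at least 4-fold higher in OCI-AML3 than in both lines and 266 (1.92%) lower. Of the 586 genes higher in DMSO, 480 were higher again, which is 81.9% of the DMSO set and 74.5% of the MI-503 set. Of the 219 lower genes 180 were lower again, 82.2% and 67.7% of the sets. Among members tested in the MI-503 libraries, 571 of 573 higher and 217 of 218 lower genes kept their direction from both lines. The median of the smaller difference was 2.92 in the MI-503 libraries, against 2.91 in DMSO, for the higher genes.

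The calprotectin genes and PBX3 were among those that no longer met the rule. S100A8 in the MI-503 libraries had 13.2, 14 and 13.2 RPM in OCI-AML3, 18, 18 and 20.1 RPM in MV411, and 15.2, 17.9 and 26.1 RPM in MOLM13, so the order of the lines in DMSO no longer held. S100A9 had 33.8, 36.9 and 35.6 RPM in OCI-AML3, 27.4, 25.6 and 28.8 RPM in MV411, and 11.2, 13.9 and 14.3 RPM in MOLM13 there, with OCI-AML3 above MV411 by 0.37 and above MOLM13 by 1.41 on the log2 scale. PBX3 had 8.26, 6.94 and 6.98 RPM in OCI-AML3, 27.5, 29.5 and 28.3 RPM in MV411, and 14.7, 15.5 and 15.1 RPM in MOLM13, which left OCI-AML3 lower by 1.88 than MV411 and by 0.99 than MOLM13. FLT3 had 34.8, 33.6 and 33.5 RPM in OCI-AML3, 369, 377 and 368 RPM in MV411, and 332, 326 and 313 RPM in MOLM13, a difference of -3.43 against MV411 and -3.23 against MOLM13. TIMP3 had 1043, 1003 and 1068 RPM in OCI-AML3 and 0.238, 0.192 and 0.0384 RPM in MV411, and was listed at 0 in all 3 MOLM13 libraries. HOXB3 had 13.4, 14.7 and 14 RPM in OCI-AML3, 2.18, 1.65 and 2.07 RPM in MV411, and 0.157, 0.0431 and 0.232 RPM in MOLM13, and it stayed at least 4-fold above both lines. AKR1C3 had 135, 129 and 133 RPM in OCI-AML3, 0.119, 0.115 and 0.0767 RPM in MV411, and 0.196, 0.172 and 0.232 RPM in MOLM13, and LIF had 29, 28.6 and 30.2 RPM in OCI-AML3, 0.119, 0.153 and 0.0767 RPM in MV411, and 0.0393, 0.0861 and 0.155 RPM in MOLM13, both farther from the other lines than in DMSO.

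**Figure D5:**
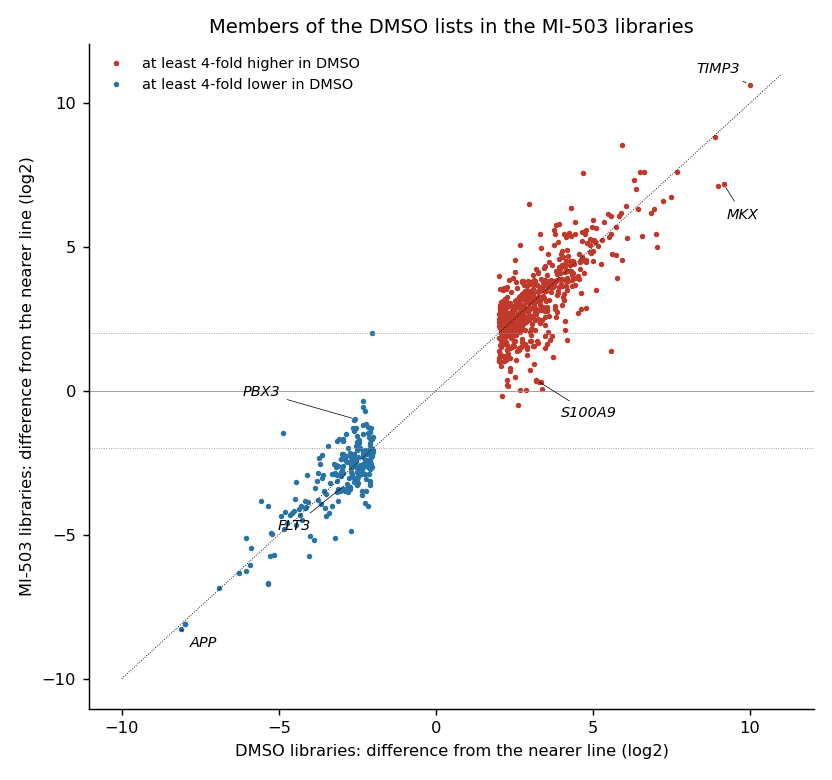
Each point is a gene of the DMSO set, with its difference from the nearer line in log2 units in the DMSO libraries on the horizontal axis and in the MI-503 libraries on the vertical axis, red for the genes higher and blue for those lower in DMSO. The dotted diagonal marks equal values and the dotted horizontal lines mark 4-fold. Of the genes shown, 571 of 573 higher and 217 of 218 lower genes keep their direction from both lines.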

How the data were processed

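Poly(A) RNA from equal cell numbers of 3 acute myeloid leukaemia lines was sequenced with ERCC spike-in RNA added, per the labels' protocols. The authors deposited, for each line, a table of 25680 symbols whose values are called signal here; per the labels these are DESeq values normalised with the spike-in. DESeq version 2 and build hg38 are named, with no role, per the submitters' processing notes. The aligner, the counting program and the annotation are not given in the sources used here. Columns of the 9 DMSO and 9 MI-503 libraries of the 3 lines were used, and 0 per-sample columns were left unmapped.

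Every value (100% within 0.001) was a whole number divided by 1 factor per library, so reads were recovered. Symbols starting HIST1H to HIST4H, SNORA, SNORD and SCARNA, with RPPH1, RMRP and RNA45S5, were dropped (470 symbols), and each library was rescaled to reads per 1000000 (RPM). Genes with at least 1 RPM in at least 3 of 9 libraries were compared as means of log2(RPM + 0.5), with a minimum difference of 2 from each line. This is a rule of size and not a test, because the tables were normalised separately. It understates the change of genes with low values. A gene without reads is given as listed at 0, with no fold. Bounds in list medians use 3 reads over the group and cover counting error only. Errors are SD over 3 libraries for means and SE for log2 differences. As the only test, edgeR 4.0.16 (R 4.3.3) fitted the recovered reads of the 9 DMSO libraries with TMM factors, two-sided. DESeq2 1.42.0 and limma 3.58.1 were alternatives. Scripts were tested on simulated data with 200 changed genes per setting. The 4-fold rule recovered 13% of genes simulated at 4-fold and 94% of those at 8-fold. Of the edgeR calls, 3.31% to 10.3% were false.

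Members, gene lists and tests were chosen with earlier results of these data known. Genes named were 34 chosen for their role, up to 6 members of each list, 15 per direction with the largest smaller difference (at least 10 RPM on the higher side and no overlap between libraries), and the 3 nearest the threshold on each side. AIF1, CCND3, CD68, CD74, CIITA, CISH, CSNK2B, DUSP1, FCN1, HLA-DRA, HOXA3, HOXA5, HOXA7, HOXA11, HOXA13, HOXB8, IL6ST, KLF4, NR4A1, OSM, RUNX1, S100A8, SPRY4, STAT5B, the other genes of named runs, and the T cell, B cell and epithelial markers fall outside that rule and were chosen after their values were seen. Values of some genes are not reported here. Promoter windows come from RefSeq (GRCh38.p14). No pair of replicates was taken as a duplicate: the chi-square between their reads, divided by its degrees of freedom, was 1.57 to 8.46.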

Additional observations from a re-analysis of the deposited data

Results flagged for a closer look

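The symbols dropped before rescaling carried a signal of their own. They took 3.94% to 4.3% of reads in the OCI-AML3 DMSO libraries, against 0.202% to 0.217% in MV411 and 0.246% to 0.266% in MOLM13. Replication histone genes took 0.898% to 0.984% in OCI-AML3, against 0.0052% to 0.0061% in MV411 and 0.00139% to 0.00142% in MOLM13. RMRP, the RNA of a mitochondrial and nuclear endoribonuclease, took 1.07% to 1.13% of OCI-AML3 reads, and RPPH1, the RNA of ribonuclease P, took 1% to 1.05%, while neither passed 8.71e-05% in an MV411 or MOLM13 library. RNA45S5, the ribosomal RNA precursor, took 0.684% to 0.878% in OCI-AML3, against 0.156% to 0.175% in MV411 and 0.177% to 0.199% in MOLM13. In the MI-503 libraries all dropped symbols took 3.97% to 4.36% in OCI-AML3, against 0.251% to 0.259% in MV411 and 0.224% to 0.281% in MOLM13. Line and library preparation cannot be told apart here.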

How the results depend on the processing

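The counts of genes at least 4-fold higher and lower than both lines were 586 and 219 in DMSO, and 644 and 266 in the MI-503 libraries. On the deposited values they were 1602 and 107 in DMSO and 1838 and 107 with MI-503; the median difference over all genes tested in DMSO is 1.29 there against MV411 and 1.10 against MOLM13. With a pseudocount of 2 RPM they were 323 and 128, and 353 and 150. A 2-fold rule gave 1503 and 762 in DMSO and an 8-fold rule 269 and 88. With the filter recomputed without OCI-AML3 replicate 1, 2 or 3 (chosen after seeing the data) the higher genes numbered 268, 267 and 266 in DMSO, sharing 265, 263 and 263 with the full set, and 291, 281 and 279 with MI-503, by construction of the minimum of 3 libraries. Leaving out each library in turn with the same genes gave 582 to 592 and 216 to 222 in DMSO, and 631 to 657 and 263 to 270 with MI-503. Counts by edgeR ranged from 11571 to 12240 against MV411 and from 11580 to 12249 against MOLM13 when a library was left out, and from 12152 to 14862 and 12178 to 14724 under the other tools, factors and filters. With a replicate block they were 12356 and 12361. Same-numbered libraries of OCI-AML3 and either other line did not deviate together (correlations -0.0367 to 0.0441), so the numbers were not taken to pair libraries.

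The differences below changed sign, and none of them had reached 4-fold. On the deposited values the difference from MV411 became 0.44 for AFF1, 0.86 for CCND3, 0.98 for IL6ST, 0.54 for DUSP6, 0.14 for LYZ, 0.43 for MEIS1, 0.89 for MEN1 and 1.11 for SPI1, and that from MOLM13 became 0.88 for CCND3, 0.27 for IL6ST, 0.33 for DUSP6, 0.48 for KMT2A, 0.14 for MEF2C, 0.64 for MEN1, 0.75 for NRAS and 0.97 for STAT5B. Against MOLM13, MEIS1 became -0.12 with TMM factors, -0.0939 with median-of-ratios factors and -0.0203 with no symbol dropped, and NPM1 became -0.0682 and -0.0438 with the same 2 kinds of factors. STAT5B against MOLM13 ranged from -0.0667 to 0.0082 as MOLM13 replicates were left out. Values for a few reads, such as 1 read at 0.0377 RPM in an MV411 library, are limited by depth, which was lower in MV411 and MOLM13.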
